A study of Saccharomyces cerevisiae with 4 samples.

Results

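The genes described here code for nuclear-encoded subunits of the mitochondrial respiratory chain and of ATP synthase in budding yeast (Saccharomyces cerevisiae). They were chosen by function, from a list of 35 reading frames: 4 of complex II, 9 of complex III, 7 of complex IV, 12 of ATP synthase and the 3 NADH dehydrogenases. Of these, 34 have a row among the 6207 reading frames of the deposited table, ATP18 (YML081C-A) being the one without, and 27 have a value on all 4 arrays and could be tested. The list is not complete. It leaves out COX5A and COX5B, which code for the alternative subunit 5 of complex IV and are given with other respiration genes below. All RNA came from a wsc1 mutant of strain BY4741, where WSC1 codes for a cell surface protein that senses stress on the wall. The cells were grown in YEPD at 24 °C and either treated with Congo Red at 30 µg/ml or left untreated, with cells collected at 4 h. Congo Red binds the glucan and chitin of the wall and hampers its assembly. Each of the 4 two-colour arrays set RNA of a treated part of a culture against RNA of its untreated part, and the dyes were swapped: the treated RNA carried Cy3 on arrays 1 and 3, and Cy5 on arrays 2 and 4. The 4 arrays come from 2 cultures. Both channels carry the wsc1 mutation and no strain with intact WSC1 was used here, so the ratios describe the mutant alone. The kind of mutation is not stated in the labels.

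In respiration, electrons from NADH and succinate pass through ubiquinone to complex III, then through cytochrome c to complex IV, which reduces oxygen. Budding yeast has no proton-pumping NADH dehydrogenase and uses single-protein enzymes on the inner membrane in its place. Complexes III and IV pump protons, and ATP synthase uses the gradient to make ATP. On glucose, as in YEPD, yeast mostly ferments, transcription of many respiratory genes is repressed, and the Hap2/3/4/5 complex raises it when glucose runs out.

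Values are log2 ratios read as Congo Red over untreated, so 0 means no difference and a negative value a lower level with Congo Red. The sources do not state the numerator. That reading is likely rather than settled: of 27 tested genes known to respond to cell wall stress, chosen with earlier results of these data known, 23 lay above 0 on all 4 arrays and 0 had a sign that followed the dye. The 4 arrays had a value for 3254, 3602, 4273 and 4991 reading frames in all, and for 29, 27, 31 and 32 of the subunit genes. A value on every array was present for 79.4% of the subunit genes with a row, against 49.6% of all reading frames. How far the spots stood above background is unknown, since the table holds no intensities. The WSC1 row (SLG1, YOR008C) was empty on all 4 arrays.

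No subunit gene of the list was called for Congo Red. The test was limma on culture means with Benjamini-Hochberg adjustment over all 3080 tested reading frames and a threshold of 0.05, and it called 0 of the 27 subunit genes, against 2.6% of all tested reading frames. At an unadjusted p below 0.05 there were 3 subunit genes (11.1%, against 26.2% of all). The smallest adjusted p among the 27 was 0.11, for QCR6. With arrays 1 and 4 taken as a culture, the pairing that called more reading frames, 4 subunit genes passed (14.8%, against 25.6% of all). The means of the 4 arrays ran from -0.34 for ATP5 to 0.39 for QCR6, and 0 of 27 reached a size of 0.5, against 8.51% of all tested reading frames. The 95% intervals of the means, from limma, all lay between -0.59 and 0.63, which is 0.666-fold to 1.55-fold. Changes inside those limits could have been missed, so the genes are not shown to be unchanged. On simulated data of 3080 genes, with arrays drawn as independent, the same test recovered 0% of changes of 0.5 on the log2 scale. It recovered 57.6% of changes of 1 and 86.1% of changes of 2. The real arrays come from 2 cultures, so these shares may not hold for them.

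**Figure D1:**
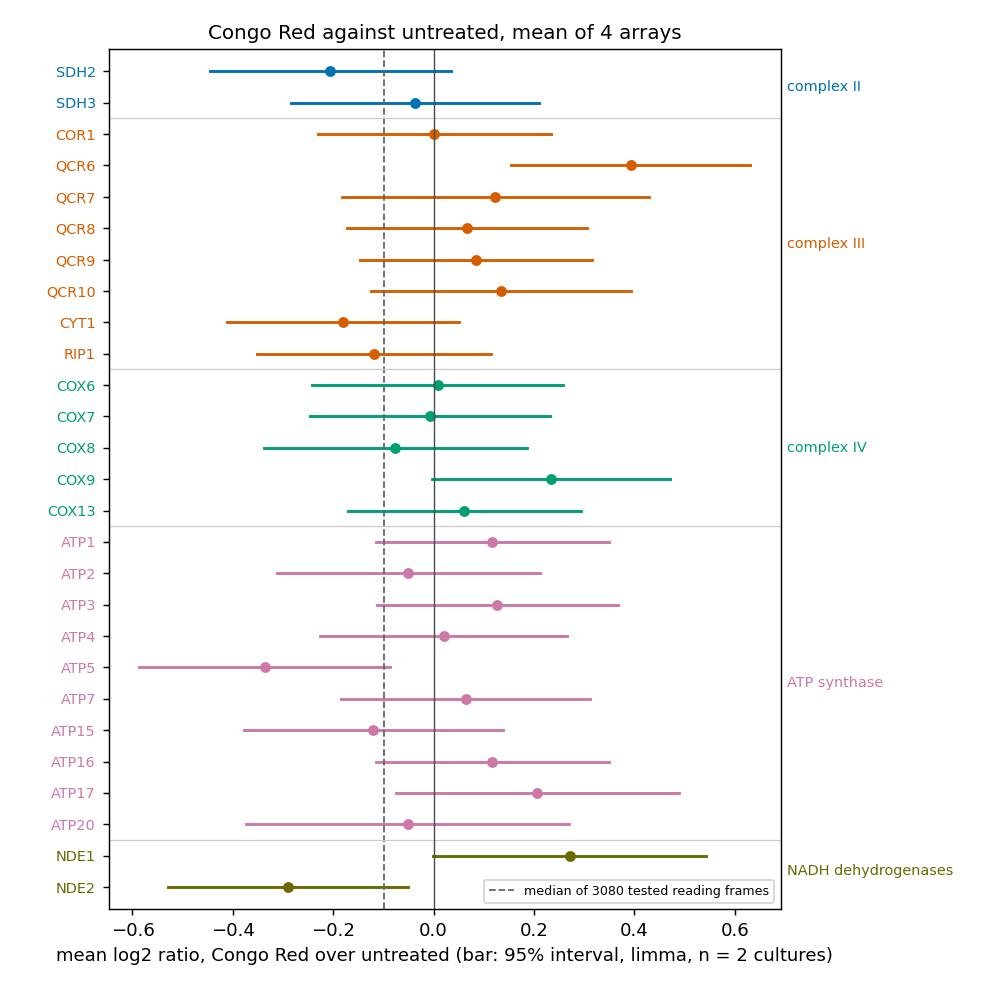
Mean log2 ratio of the 4 arrays (x axis, Congo Red over untreated) for the 27 tested subunit genes, by complex; bars are 95% intervals from limma with n = 2 cultures and the dashed line is the median of all 3080 tested reading frames, -0.10. The intervals of QCR6, ATP5 and NDE2 leave out 0 and those of the other 24 hold it, before any adjustment for the number of genes tested.

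As a group the subunit genes stood slightly above the rest of the table. The median of their means was 0.02, against -0.10 for all tested reading frames, and 21 of the 27 lay above that overall median. Their mean was above 0 in 16 of 27 (59.3%, against 32.8% of all). When each array was centred on its median, the overall median became 0.02 and that of the subunit genes 0.14. Centring takes the same constant off every gene of an array, so the gap of 0.12 could not change. Centring is therefore no check on the gap. By array, the medians of the subunit genes were 0.05, -0.05, 0.19 and -0.04 on arrays 1 to 4. Those of all tested reading frames were -0.13, -0.12, -0.06 and -0.05. The gap was thus wider on arrays 1 and 3, with Congo Red in Cy3, and small on array 4. The gap has no test here, since the genes were chosen with earlier results known. In RNA of whole cultures, fewer expressing cells and less RNA per cell cannot be told apart.

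In many of the subunit genes the sign of the ratio followed the dye. On arrays 1 and 3, with Congo Red RNA in Cy3, the subunit genes had medians of 0.05 and 0.19 (-0.13 and -0.06 for all). On arrays 2 and 4, with Congo Red RNA in Cy5, they had medians of -0.05 and -0.04 (-0.12 and -0.05 for all). In 16 of the 27 genes (59.3%, against 28.7% of all) the sign on arrays 1 and 3 was the opposite of that on arrays 2 and 4. Of these, 10 were above 0 with Congo Red in Cy3 (37%, against 16.4% of all) and 6 below it (22.2%, against 12.3% of all). All 4 arrays had 1 sign in 4 genes (14.8%, against 28.4% of all). These were SDH2 and ATP5, below 0 (7.41%, against 21% of all), and QCR10 and ATP17, above 0 (7.41%, against 7.44% of all). Across the 27 genes Pearson r was 0.94 between arrays 1 and 3 and 0.78 between arrays 2 and 4. Between arrays of opposite dye it ran from -0.65 to -0.43. Across all 3080 reading frames the same pairs gave 0.64, 0.71 and -0.05 to 0.33. These are descriptions across genes that share arrays and labelling, and genes are not independent replicates.

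**Figure D2:**
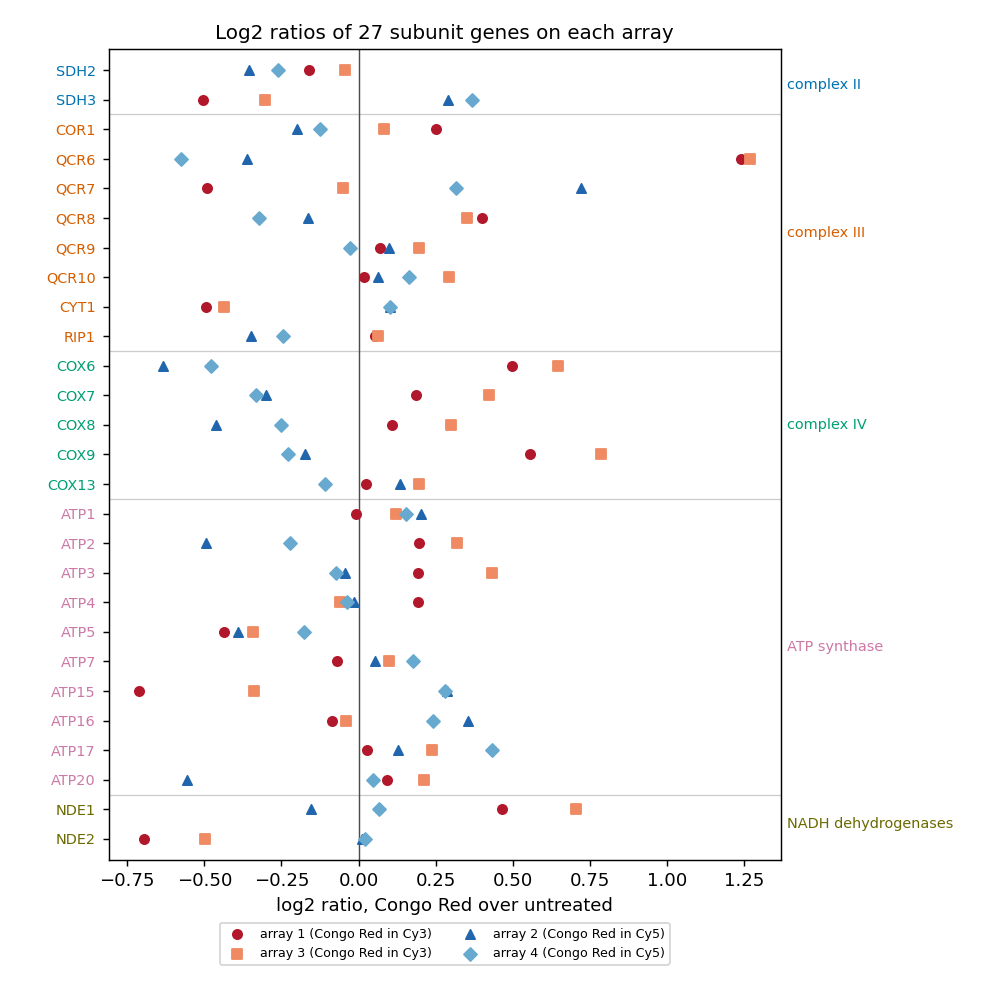
Log2 ratio (x axis, Congo Red over untreated) of each of the 27 tested subunit genes on each array, by complex; red and orange points are the arrays with Congo Red RNA in Cy3, blue points those with it in Cy5. In 16 genes, among them QCR6, COX6 and COX9, the red and orange points lie on one side of 0 and the blue points on the other.

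The share of a ratio that goes with the dye was tested with limma on the 4 single arrays with a term for dye orientation, adjusted over all tested reading frames. It was called in 8 of 27 subunit genes (29.6%, against 16% of all): SDH3, QCR6, QCR8, CYT1, COX6, COX9, ATP15 and NDE2. Of these, 4 were higher with Congo Red in Cy3 (14.8%, against 8.15% of all) and 4 lower (14.8%, against 7.86% of all). That fit treats the 4 arrays as independent, although they come from 2 cultures. With the same quantity taken within each culture and the larger p of both pairings kept, limma called 0 of 27 subunit genes and 0 of 3080 reading frames (adjusted p of 0.0832 to 0.136 for those 8, unadjusted p below 0.05 for 13 of 27). The count by pairing was 12 of 27 with arrays 1 and 2 as a culture (44.4%, against 24.9% of all) and 0 with arrays 1 and 4. On single arrays the count was 11 after centring (40.7%, against 18.2% of all), 8 after scaling (29.6%, against 16.6% of all) and 3 of 29 where values on 3 arrays sufficed (10.3%, against 9.71% of all). The dye calls and their adjusted p given below for single genes are those of the 4 single arrays. The means of the 2 orientations lay at least 0.5 apart in 13 of 27 genes (48.1%, against 32.7% of all). The dye part is taken here as (mean of arrays 1 and 3 minus mean of arrays 2 and 4) divided by 2, and its median size was 0.20 in the subunit genes, against 0.17 in all tested reading frames. It was larger than the mean ratio in 19 of 27 genes, against 48.5% of all. In the same fit, with its Congo Red term, 1 subunit gene was called, QCR6 (3.7%, against 10.4% of all).

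**Figure D3:**
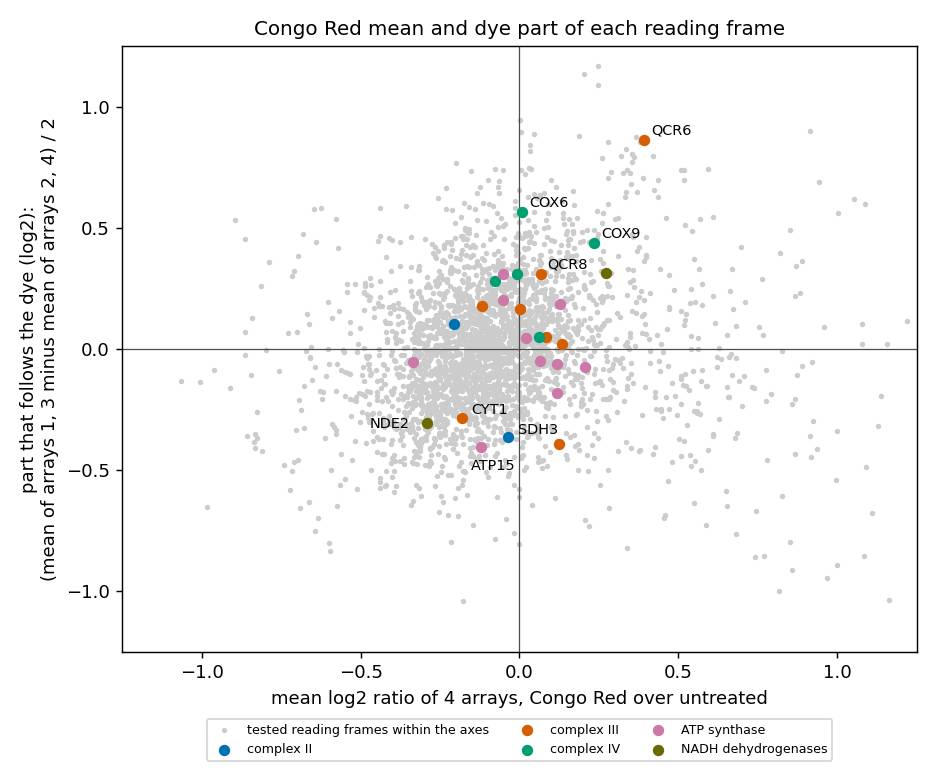
Each point is a tested reading frame, with its mean log2 ratio of 4 arrays (x axis, Congo Red over untreated) and the part that follows the dye (y axis, log2 units); coloured points are the subunit genes and grey points all reading frames within the axes. The 8 named genes are those called for the dye effect on single arrays, with QCR6 highest at 0.86, and the subunit genes have an SD of 0.30 along the y axis, against 0.17 along the x axis.

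Complex II, succinate dehydrogenase, passes electrons from succinate to ubiquinone. SDH2 (YLL041C), coding for the iron-sulfur subunit, had -0.16, -0.35, -0.05 and -0.26 on arrays 1 to 4. All 4 values were below 0, with a mean of -0.21 ± 0.09 (moderated SE, n = 2 cultures, 0.867-fold), and the gene was not called (limma, adjusted p = 0.223). SDH3 (YKL141W), coding for a membrane anchor, had -0.50 and -0.30 on arrays 1 and 3, and 0.29 and 0.37 on arrays 2 and 4. Its mean was -0.04, and its dye part of -0.37 ± 0.08 was called (limma, adjusted p = 0.0345). SDH1, the flavoprotein gene, and SDH4, the other anchor gene, had values on arrays 3 and 4 alone. They were -0.58 and -0.16 for SDH1, and -0.39 and 0.08 for SDH4.

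Complex III, the cytochrome bc1 complex, holds QCR6, the gene with the largest mean. QCR6 (YFR033C) codes for the acidic hinge subunit that lies near cytochrome c1. It had 1.24 and 1.27 on arrays 1 and 3, and -0.36 and -0.58 on arrays 2 and 4. It was thus above every other subunit gene on both arrays with Congo Red in Cy3 and lowest of the 27 on array 4. The mean was 0.39 ± 0.09 (moderated SE, n = 2 cultures, 1.31-fold, limma adjusted p = 0.11), within an interval of 0.15 to 0.63. The dye part of 0.86 ± 0.08 was more than the mean (limma, adjusted p = 0.0164), and its size exceeded that of 99.4% of tested reading frames. QCR6 passed the threshold for Congo Red in 4 of the 12 other settings tried (limma, adjusted p of 0.0207 to 0.0375). Its mean was 0.39 to 0.40 in each of those. The same settings called 10.4% to 26.7% of all tested reading frames, against 2.6% in the main test.

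The tested genes for catalytic and core subunits of complex III had means near 0 or below it. CYT1 (YOR065W), the cytochrome c1 gene, had -0.49 and -0.44 on arrays 1 and 3, and 0.10 on both arrays 2 and 4. Its mean was -0.18 ± 0.09 (n = 2 cultures, 0.882-fold, limma adjusted p = 0.252), and its dye part was -0.28 ± 0.07 (adjusted p = 0.0484). RIP1 (YEL024W), coding for the Rieske iron-sulfur protein, had 0.05, -0.35, 0.06 and -0.24 on arrays 1 to 4, with a mean of -0.12. The core protein gene COR1 (YBL045C) had 0.25, -0.20, 0.08 and -0.13, and its mean of 0.00 was the nearest to 0 of the 27. QCR2, coding for the other core protein, was empty on all arrays.

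Among the small subunits of complex III, QCR7 and QCR8 ran in opposite directions with the dye. QCR8 (YJL166W) had 0.40 and 0.35 on arrays 1 and 3, and -0.17 and -0.32 on arrays 2 and 4, with a mean of 0.07. Its dye part of 0.31 was called (limma, adjusted p = 0.0457). QCR7 (YDR529C) had -0.49 and -0.05 on arrays 1 and 3, and 0.72 and 0.32 on arrays 2 and 4. Its mean was 0.12, and its dye part of -0.39 was not called (limma, adjusted p = 0.0697), with a gap of 0.44 between arrays 1 and 3 that was the widest of the 27 genes. QCR9 (YGR183C) had 0.07, 0.10, 0.20 and -0.03 on arrays 1 to 4. QCR10 (YHR001W-A) had 0.02, 0.06, 0.29 and 0.16. In both the values of the 2 dye orientations overlapped. Over the 8 tested genes of complex III the median of the means was 0.08.

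In complex IV, cytochrome c oxidase, all 5 tested genes of the list had a higher mean with Congo Red in Cy3 than in Cy5. So did 47.2% of all tested reading frames, a difference that was not tested. The subunit 5 genes COX5A and COX5B, outside the list, had a lower mean with Congo Red in Cy3. It was -0.29 against -0.24 for COX5A, and -0.80 against -0.46 for COX5B. COX6 (YHR051W) had 0.50 and 0.65 on arrays 1 and 3, and -0.63 and -0.48 on arrays 2 and 4. Its mean was 0.01, with a dye part of 0.56 ± 0.08 (limma, adjusted p = 0.0223). COX9 (YDL067C) had 0.56 and 0.78 on arrays 1 and 3, and -0.17 and -0.23 on arrays 2 and 4. Its mean of 0.23 ± 0.09 (n = 2 cultures, 1.18-fold) was not called (limma, adjusted p = 0.192), while its dye part of 0.44 ± 0.08 was (adjusted p = 0.0268). COX7 (YMR256C) had 0.19 and 0.42 on arrays 1 and 3, and -0.30 and -0.33 on arrays 2 and 4. COX8 (YLR395C) had 0.11 and 0.30 on arrays 1 and 3, and -0.46 and -0.25 on arrays 2 and 4. The means of these 2 genes were -0.01 and -0.08, and all 4 genes code for small subunits around the catalytic core, which is itself mitochondrially encoded. COX13 (YGL191W), coding for another small subunit, stood apart with 0.02, 0.13, 0.19 and -0.11 on arrays 1 to 4. The medians of the 5 tested genes were 0.19, -0.30, 0.42 and -0.25 on arrays 1 to 4, and the median of their means was 0.01. COX4 was empty on all arrays. COX12, coding for a subunit on the intermembrane space side, had -0.92, -0.19 and -0.26 on arrays 1, 3 and 4 and none on array 2.

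**Figure D4:**
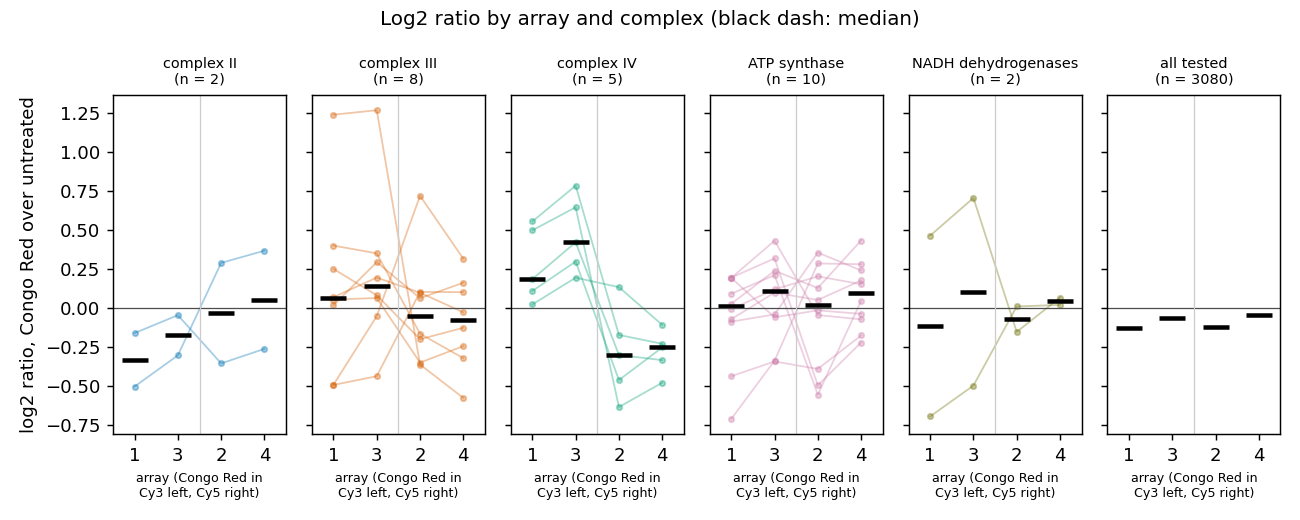
Log2 ratio (y axis, Congo Red over untreated) on each array for the tested genes of each complex, with arrays 1 and 3 (Congo Red in Cy3) left of arrays 2 and 4 (Congo Red in Cy5); each line is a gene, the black dash is the median, and the last panel gives the medians of all 3080 tested reading frames. The 5 listed and tested genes of complex IV have medians of 0.19 and 0.42 on arrays 1 and 3, and -0.30 and -0.25 on arrays 2 and 4. ATP synthase genes have medians of 0.01 to 0.11 on every array. COX5A and COX5B are not on the list and are not shown.

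Of 10 tested genes of ATP synthase, 4 had a sign that followed the dye (against 28.7% of all) and 1 was called for it (against 16% of all). In the catalytic head, ATP1 (YBL099W), the alpha subunit gene, had -0.01, 0.20, 0.12 and 0.15 on arrays 1 to 4, with a mean of 0.12. ATP2 (YJR121W), the beta subunit gene, had 0.20, -0.50, 0.32 and -0.22, with a mean of -0.05. The products of ATP1 and ATP2 alternate in one ring, and their genes had opposite signs on arrays 1, 2 and 4.

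In the central stalk the 3 genes also split. ATP3 (YBR039W), the gamma subunit gene, had 0.19 and 0.43 on arrays 1 and 3, and -0.05 and -0.07 on arrays 2 and 4. ATP15 (YPL271W), the epsilon subunit gene, had -0.71 and -0.34 on arrays 1 and 3, and 0.29 and 0.28 on arrays 2 and 4, with a called dye part of -0.40 ± 0.09 (limma, adjusted p = 0.0404). ATP16 (YDL004W), the delta subunit gene, had -0.09 and -0.04 on arrays 1 and 3, and 0.36 and 0.24 on arrays 2 and 4. Their means were 0.13, -0.12 and 0.12 for ATP3, ATP15 and ATP16.

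ATP5 (YDR298C) codes for OSCP, the protein that ties the peripheral stalk to the head. It had -0.44, -0.39, -0.34 and -0.18 on arrays 1 to 4. It was the lowest of the 27 by mean, with a single sign on all arrays, and differed little between the dyes. The mean was -0.34 ± 0.09 (n = 2 cultures, 0.792-fold, interval -0.59 to -0.09) and was not called (limma, adjusted p = 0.147). ATP5 passed the threshold in 2 of the 12 other settings (limma, adjusted p = 0.0283 in each): with arrays 1 and 4 taken as a culture, and without array 3. Those settings called 25.6% and 26.7% of all tested reading frames. The one without array 3 treats single arrays as independent.

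The other stalk and membrane subunit genes lay near 0 or slightly above. ATP17 (YDR377W), the f subunit gene, was above 0 on every array, with 0.03, 0.13, 0.24 and 0.43 on arrays 1 to 4 and a mean of 0.21 ± 0.11 (n = 2 cultures, 1.15-fold, limma adjusted p = 0.272). ATP4 (YPL078C), of the peripheral stalk, had 0.19, -0.01, -0.06 and -0.04 on arrays 1 to 4, with a mean of 0.02. ATP7 (YKL016C), also of the peripheral stalk, had -0.07, 0.05, 0.10 and 0.18, with a mean of 0.06. In both the values lay on either side of 0 without following the dye. ATP20 (YPR020W), the g subunit gene, had 0.09, -0.56, 0.21 and 0.05, with a mean of -0.05, and array 2 was the low one. ATP14, of the peripheral stalk, had a value on array 4 alone, -0.12. The median of the 10 tested means was 0.04.

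The NADH dehydrogenases feed electrons to ubiquinone from the outer face of the inner membrane (NDE1 and NDE2) or from the matrix side (NDI1). NDE1 (YMR145C) had 0.46 and 0.71 on arrays 1 and 3, and -0.15 and 0.07 on arrays 2 and 4. NDE2 (YDL085W) had -0.70 and -0.50 on arrays 1 and 3, and 0.01 and 0.02 on arrays 2 and 4. NDE1 stood above NDE2 by 1.16 and 1.20 on arrays 1 and 3, and by -0.16 and 0.05 on arrays 2 and 4, so the gap between these paralogs was seen with Congo Red in Cy3. The mean of NDE1 was 0.27 ± 0.10 (n = 2 cultures, 1.21-fold, limma adjusted p = 0.191) and that of NDE2 -0.29 ± 0.09 (0.818-fold, limma adjusted p = 0.16), neither of them called. NDE2 had a called dye part of -0.31 ± 0.07 (limma, adjusted p = 0.0496), and that of NDE1, at 0.31, was not called (adjusted p = 0.0607). NDI1 had -0.59, -0.25 and -0.16 on arrays 1, 3 and 4 and none on array 2. Cross-hybridisation between paralogs was not tested, as the labels do not state the kind of probe.

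As given above, 23 of the 27 tested genes known to respond to cell wall stress lay above 0 on all 4 deposited arrays. In 0 of these 27 did the sign follow the dye. If arrays 2 and 4 had been deposited as channel ratios, turning their sign would make the dye part the Congo Red effect. Read so, limma on culture means called 0 subunit genes and 0 reading frames in all, with an unadjusted p below 0.05 for 13 of 27 subunit genes (48.1%, against 27.8% of all). The largest turned mean was that of QCR6 at 0.86 ± 0.09 (adjusted p = 0.0832), followed by COX6 at 0.56 (adjusted p = 0.0832), and its sign would hang on which dye was the numerator.

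Other genes linked to respiration, not all of them needed for it, gave 4 calls, all lower. Over 10 lists of assembly factors, electron carriers, transporters, regulators and the alternative subunit 5 of complex IV, 52 genes were tested. Of these, 4 fell, 0 rose and 48 were not called (7.69% called, against 2.6% of all). The median of the 52 was -0.21, against 0.02 for the subunit genes and -0.10 for all tested reading frames, a gap that was not tested. These calls depended on the setting: 0 of the 4 passed after centring (limma, adjusted p of 0.061 to 0.0972), where values on 3 arrays sufficed (0.0598 to 0.103), on single arrays without a dye term (0.0747 to 0.352), with arrays 2 and 4 turned (0.0832 to 0.26), without array 2 (0.0934 to 0.126) or without array 4 (0.0592 to 0.0799). With arrays scaled to a common spread CYC7 and CAT5 passed, and OXA1 and COX5B did not. All 4 passed with either pairing alone and on single arrays with a dye term. Those settings called 7.69% to 36.5% of the 52, against 2.73% to 25.6% of all tested reading frames. The 4 also passed without array 1 and without array 3, in fits that treat single arrays as independent. The genes that fell were OXA1, CAT5, CYC7 and COX5B. OXA1 (YER154W), coding for the inner membrane insertase that places mitochondrially encoded subunits, had -1.43 and -1.36 on arrays 1 and 3, and 0.03 and 0.18 on arrays 2 and 4. It was called for Congo Red at -0.64 ± 0.09 (n = 2 cultures, limma adjusted p = 0.04996) and also for the dye effect (adjusted p = 0.0164), and it lay below 0 only on the arrays with Congo Red in Cy3. CAT5 (YOR125C), needed for ubiquinone synthesis, was below 0 on every array, with -1.12, -0.60, -1.31 and -0.39 on arrays 1 to 4 and a mean of -0.86 ± 0.09 (n = 2 cultures, limma adjusted p = 0.0273). It was also called for the dye effect, with a dye part of -0.36 (limma, adjusted p = 0.0414).

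The other 2 that fell code for isoforms used at low oxygen. CYC7 (YEL039C), a cytochrome c gene, had -0.31, -1.59, -0.42 and -1.27 on arrays 1 to 4. Its mean was -0.90 ± 0.09 (n = 2 cultures, 0.537-fold, limma adjusted p = 0.0273). It was also called for the dye effect, with a dye part of 0.53 (limma, adjusted p = 0.0244). COX5B (YIL111W), a complex IV subunit gene, had -0.79, -0.44, -0.81 and -0.47 on arrays 1 to 4. Its mean was -0.63 ± 0.09 (n = 2 cultures, 0.647-fold, limma adjusted p = 0.0498). It was not called for the dye effect (limma, adjusted p = 0.132). Their aerobic counterparts CYC1 and COX5A had means of -0.25 and -0.26 and were not called. CYC1 had 0.22 and 0.02 on arrays 1 and 3, and -0.60 and -0.61 on arrays 2 and 4. Its dye effect was called (limma, adjusted p = 0.0345). COX5A was below 0 on every array and was not called for the dye effect (limma, adjusted p = 0.838).

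In the lists without a call, the tested genes farthest from 0 were these. MZM1 and CBP4, of complex III assembly, had means of -0.50 and -0.24. FMC1 and STF2, of ATP synthase assembly and regulation, had -0.49 and -0.44. SDH7 and SDH5, of SDH assembly, had -0.21 and -0.12. CBP4, STF2 and SDH7 were called for the dye effect on single arrays (limma, adjusted p of 0.0257 to 0.026). The signs of CBP4, SDH7 and SDH5 followed the dye, so their means are not a lower level on every array. The D-lactate dehydrogenase gene DLD1 and the glycerol-3-phosphate dehydrogenase gene GUT2 had -0.51 and -0.36. The phosphate carrier gene PIC2 had -0.61 and was below 0 on every array, and the ADP/ATP carrier gene AAC3 had -0.13. Among regulators HAP1 had 0.96, 0.47, 0.88 and -0.12 on arrays 1 to 4, and HAP4, the activating subunit of the Hap complex, had -0.70, -0.45, 0.41 and -0.10. Neither HAP1 (limma, adjusted p = 0.1003) nor HAP4 (limma, adjusted p = 0.492) was called.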

How the data were processed

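Each of the 4 arrays received Cy3- and Cy5-labelled cDNA from total RNA, per the labels. The deposited table holds 1 log2 ratio per reading frame and array. The base follows from the values: 2 raised to each value is a ratio with 4 decimals for 100% of values on every array (within 0.02 of the last decimal), against 3.7 to 5.4% for other bases or the inverse ratio. Numerator, background correction, normalization and the rule for empty cells are not stated in the labels. Of 6209 rows, 2 control spots were left out. Symbols come from the RefSeq gene table of assembly R64, where all 35 members matched. No coordinates are printed, since the build behind the array is not stated.

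Values were used as deposited. The independent units are 2 cultures, and which arrays share one is not given, so arrays of opposite dye were averaged under both possible pairings (arrays 1, 2 and 3, 4, or arrays 1, 4 and 2, 3). Each was fitted with limma 3.58.1 in R 4.3.3 (lmFit, eBayes), and the larger p and SE were kept. P-values were adjusted by Benjamini-Hochberg over 3080 reading frames with values on all 4 arrays, with a threshold of 0.05. The SE draws largely on variance pooled over all genes. Both fits were tested on simulated data of 3080 genes with arrays drawn as independent. The Congo Red fit made 0 false calls in each of 5 runs, and its recovery is given with the results. The dye fit recovered 87.9% of changes of 1 on the log2 scale, with 7 to 15 false calls a run. Members and lists were chosen with earlier results of these data known. Full statistics are given for the 8 members with the largest absolute mean and for called genes, and of each other list for called genes or otherwise the 2 farthest from 0. Precision is limited by the number of arrays. Alternatives were the pairing, single arrays with or without a dye term, centring, scaling, values on 3 arrays, turned arrays and each array left out, and the dye effect on culture means, which was chosen after seeing the data. A filter on dim spots was not possible without intensities. No sequences are printed.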

Additional observations from a re-analysis of the deposited data

Results flagged for a closer look

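For 8 subunit genes the ratio differed between the arrays with Congo Red RNA in Cy3 and those with it in Cy5, by the dye term of limma on the 4 single arrays (Benjamini-Hochberg over 3080 reading frames). The 4 arrays come from 2 cultures, and on culture means with the larger p of both pairings none of the 8 was called (limma, adjusted p of 0.0832 to 0.136; unadjusted p below 0.05 for each of them). As the mean with Congo Red in Cy3 minus that in Cy5, the difference was 1.72 for QCR6, 1.13 for COX6, 0.87 for COX9 and 0.62 for QCR8. It was -0.81 for ATP15, -0.73 for SDH3, -0.61 for NDE2 and -0.57 for CYT1. In these 8 genes 4 differences ran each way. No array stood far from the other 3 by Dixon's test in any of the 27 tested genes. With 4 values that split by dye the test can hardly single out an array, so nothing is concluded from it. The part of array handling or labelling in these differences was not tested.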

How the results depend on the processing

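Calls over all reading frames numbered 80, with 47 higher and 33 lower. Their number was 787 with arrays 1 and 4 as a culture (255 higher, 532 lower), 320 on single arrays with a dye term (121 and 199), 36 without that term (28 and 8), 32 after centring (30 and 2), 19 where values on 3 arrays sufficed (17 and 2), 0 with arrays 2 and 4 turned, and 13 to 823 without 1 array, from fits on single arrays with a dye term (375, 13, 823 and 25 without arrays 1, 2, 3 and 4). Calls among subunit genes numbered 0, but 4 with arrays 1 and 4 as a culture (QCR6, ATP5, NDE1 and NDE2), 1 on single arrays with a dye term (QCR6), and 0 to 3 without 1 array (QCR6 without array 1, and QCR6, ATP5 and NDE2 without array 3). These fits also called more reading frames in all, and the cause was not tested. The number called for the dye was 8, with 11 after centring, 8 after scaling and 3 where values on 3 arrays sufficed (COX6, COX9 and QCR6). On culture means, an alternative chosen after seeing the data, it was 0 with the larger p of both pairings, 12 with arrays 1 and 2 as a culture and 0 with arrays 1 and 4. The median of the subunit genes, 0.02, was 0.14 after centring, 0.0485 with arrays 2 and 4 turned and 0.0182 to 0.0521 without 1 array. Centring moved every array's median, and so the medians of complexes II, III and IV, ATP synthase and the NADH dehydrogenases to -0.0024, 0.19, 0.13, 0.16 and 0.11. The last was -0.29 where 3 arrays sufficed, since NDI1 then entered. Of the 27 genes, 9 had a mean on the other side of 0 in some setting besides turning, with no call on either side. CYC7 went to the other side when turned, at 0.53. Each ratio already sets both parts of a culture against each other, so no replicate block was added. Signal over background is unknown.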

Other observations

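Rows of the marker genes that are deleted, in part or in full, in BY4741 were looked at beside the subunit genes. MET17 and URA3 were empty on all 4 arrays. LEU2 (YCL018W) had -0.31 and -0.30 on arrays 1 and 3, and 0.11 and 0.30 on arrays 2 and 4, a sign that followed the dye. HIS3 (YOR202W) had -0.76 and -0.66 on arrays 1 and 3, and 0.05 and 0.08 on arrays 2 and 4, with a dye effect called on single arrays (limma, adjusted p = 0.0278) and a mean of -0.32 that was not called (adjusted p = 0.144). The sign pattern of LEU2 was shared by 6 of the 27 tested subunit genes (22.2%, against 12.3% of all): SDH3, QCR7, CYT1, ATP15, ATP16 and NDE2. The opposite pattern, above 0 with Congo Red in Cy3, was seen in 10 of the 27 (37%, against 16.4% of all). What gave the LEU2 and HIS3 values was not tested, nor whether it bears on the subunit genes.

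Among transporters that serve oxidative phosphorylation, the phosphate carrier gene MIR1 (YJR077C) had -0.62 and -0.17 on arrays 1 and 3, and 0.36 and 0.69 on arrays 2 and 4, with a called dye effect (limma, adjusted p = 0.0457). The second porin gene POR2 (YIL114C) had -0.49 and -0.60 on arrays 1 and 3, and 0.25 and 0.34 on arrays 2 and 4 (dye effect, limma adjusted p = 0.026). PET9, the main ADP/ATP carrier gene, had -0.10 to 0.05 over the 4 arrays. These genes were named after their values were seen.

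PUT1 (YLR142W), coding for proline oxidase, which also feeds electrons to ubiquinone, had 1.19 and 1.57 on arrays 3 and 4 and was empty on arrays 1 and 2. It was therefore not tested, and it too was named after its values were seen.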
